A study of Mus musculus with 2 samples.

Results

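The megakaryocytes described here are 306 barcodes of 1000 or more genes from mouse long bone marrow, 152 in the old library and 154 in the adult library. They were chosen by their own counts. Each had 10% or fewer mitochondrial UMIs (unique molecular identifiers, the counted RNA molecules), at least 10 UMIs summed over Pf4, Ppbp, Gp9, Gp1bb, Itga2b and Treml1, under 30 UMIs of Cxcl12 and under 3 of Cdh5 and Kdr together. They were drawn from 17484 old and 21004 adult barcodes that passed the limits on genes and mitochondrial UMIs, of 22298 old and 25635 adult barcodes deposited. They are set against 1346 platelet-like barcodes, 494 old and 852 adult, which had under 1000 genes, 10% or fewer mitochondrial UMIs and at least 5 UMIs of the same 6 genes. Since both groups were cut from these values, the levels of the 6 genes and the number of genes per barcode describe the choice and are no result.

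Megakaryocytes are large polyploid cells of the marrow that shed platelets into the blood. They load alpha granules with proteins such as von Willebrand factor and platelet factor 4, carry the integrin of Itga2b and Itgb3 and the glycoprotein receptors by which platelets adhere, and extend proplatelets built on beta-1 tubulin. Platelets have no nucleus and hold RNA inherited from the megakaryocyte. GATA-1, Fli-1, NF-E2 and Runx1 are transcription factors of this lineage, and thrombopoietin is its main growth signal.

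Both libraries came from wild-type C57BL6 mice (C57BL6J in the protocol) and were made with droplet single-cell 3′ RNA sequencing. The groups differ in age alone as labelled, old or adult, with 1 library each. Bone was digested with enzymes and red cells were lysed. Blood-forming cells were depleted on magnetic columns and live cells were sorted as stromal cells, so the members are cells that passed the depletion and the sort, and their share is not their share of marrow. With 1 library per age no test between ages was possible. Every interval below is an exact 95% interval that covers counting error only, and every ratio compares these libraries and not ages in general.

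The libraries held 229917243 UMIs in the old and 208637421 in the adult. The members held 1823276 UMIs in the old library and 1560102 in the adult, with a median of 6131.5 and 4659 UMIs and of 2005 and 1857.5 genes per barcode. Platelet-like barcodes had a median of 1092 UMIs in the old library and 1019.5 in the adult. The libraries shared 152 barcode sequences, of which 2 belonged to old members and 0 to adult members. No doublet caller was applied.

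The label was checked on the 3 given markers that the choice did not use, Vwf (von Willebrand factor), Itgb3 (the integrin beta-3 chain) and Gp6 (the collagen receptor glycoprotein VI). A UMI of each of the 3 was present in 85 of 152 members of the old library and 50 of 154 of the adult. Among the other barcodes of 1000 or more genes the same held in 43 of 17332 old and 61 of 20850 adult barcodes. The label therefore rested on more evidence in some members than in others, and 10 old and 18 adult members held none of the 3. Near the limit, the 5 old and 7 adult members with 10 or 11 UMIs of the 6 genes held a median of 0.195% and 0.0967% of their UMIs in those genes. Just outside it, the 5 old and 20 adult barcodes with 8 or 9 such UMIs held a median of 0.181% and 0.177%. The limit on Cxcl12 alone left out 99 old and 198 adult barcodes that met every other term, and the limit on Cdh5 and Kdr alone left out 8 old and 13 adult.

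RNA of other cell types was abundant in many members. Lists of 12 marker genes were summed for each of 9 other cell types. Plasma and B cell genes (immunoglobulins among them) took 14.6% of all UMIs of old members and 0.000320% of those of adult members. Osteolineage genes (collagen I, osteocalcin and others of bone-forming cells) took 0.730% in old and 12.9% in adult members. Endothelial genes took 0.00455% in old and 0.00955% in adult members. Erythroid genes took 0.400% and 0.843%, neutrophil lineage genes 0.138% and 0.00372%, monocyte and macrophage genes 0.00450% and 0.0404%, in old and adult members. Mast cell and basophil genes and T and NK cell genes took under 0.02% in both. A member was called mixed when a list took more than 0.8% of its UMIs for CAR cells, 3% for osteolineage cells, 5% for plasma and B cells, or 1% for erythroid or neutrophil lineage cells. These cuts were set after seeing the data. By them 61 of 152 old members (40.1%, interval 32.3% to 48.4%) and 109 of 154 adult members (70.8%, interval 62.9% to 77.8%) were mixed.

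The kind of RNA differed between the libraries. In the old library 31 members were over the CAR cut, 20 over the plasma and B cell cut and 8 over the osteolineage cut. In the adult library 67 were over the CAR cut, 0 over the plasma and B cell cut and 44 over the osteolineage cut. Erythroid genes put 2 old and 6 adult members over their cut. The 20 old members high for plasma and B cell genes held a median of 46.3% of their UMIs in that list, and the 44 adult members high for osteolineage genes a median of 18.2%. Few lay near most cuts, but for the CAR list 3 old and 5 adult members were within 25% below the cut and 10 old and 7 adult within 25% above it. The part of this RNA in the differences over all members was not tested.

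**Figure D1:**
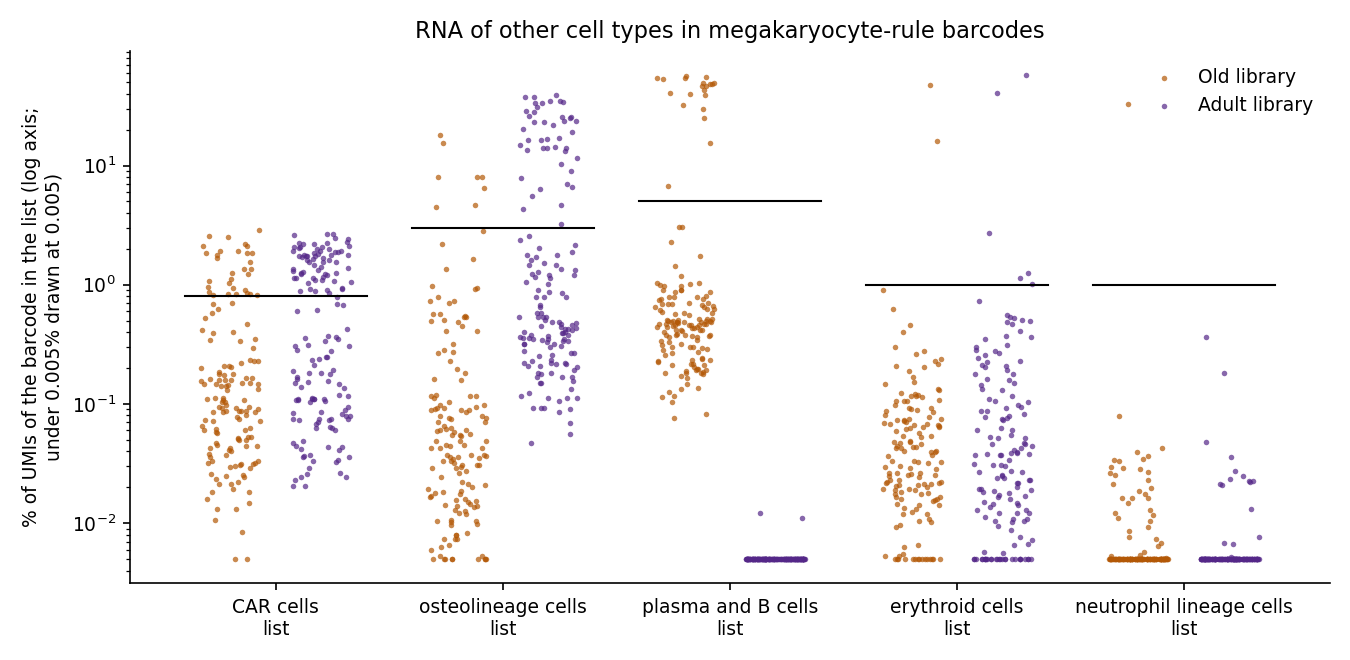
Share of each member's UMIs in 5 lists of 12 marker genes (y axis, percent, log scale, values under 0.005% drawn at 0.005), old members on the left and adult members on the right of each pair; 1 point is 1 barcode and black lines are the cuts above which a member was called mixed. The high plasma and B cell points, 20 over the cut, are in the old library, and 44 of the osteolineage points over the cut are adult against 8 old.

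The 91 old and 45 adult members that were not mixed fell apart by Malat1, a long noncoding RNA that is kept in the nucleus. In 61 of 91 old and 26 of 45 adult unmixed members Malat1 took under 0.5% of the UMIs, and in 25 old and 13 adult it took 2% or more. Between those values lay 5 old and 6 adult members. Itga6, the integrin alpha-6 chain, then divided the members with at least 1% Malat1. Among them 18 old and 7 adult members had 3000 CPM (UMIs of a gene scaled to a common total) of Itga6 or more and 8 old and 7 adult had under 750 CPM. The ranges were cut at 1% Malat1 and 1500 CPM Itga6, after seeing the data. They are ranges of a score and not cell types. Malat1-high members (high Malat1 and high Itga6) were 21 old and 7 adult, Malat1-low members 62 old and 29 adult, and Itga6-low members (high Malat1, low Itga6) 8 old and 9 adult.

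**Figure D2:**
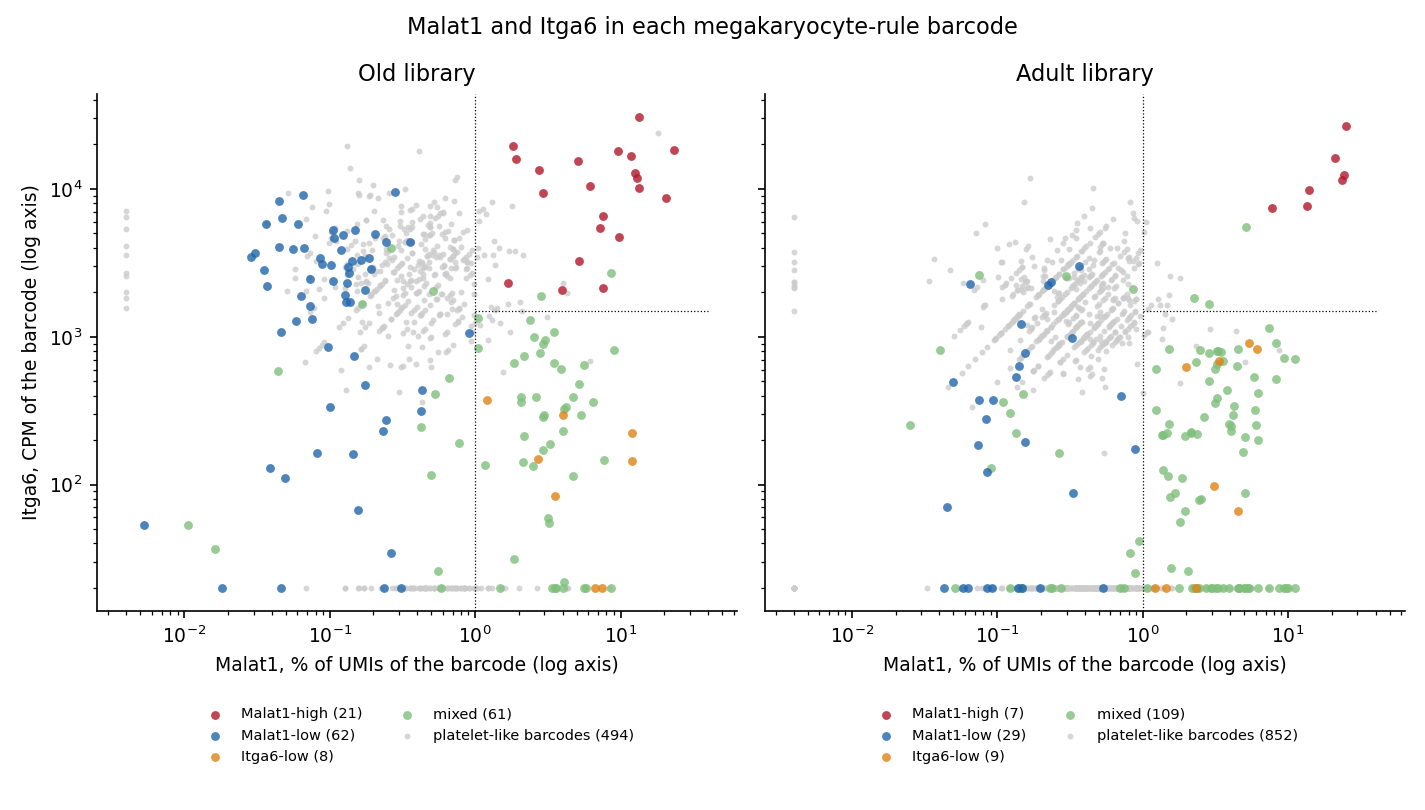
Malat1 (x axis, percent of the barcode's UMIs, log scale, lowest values drawn at 0.004%) and Itga6 (y axis, CPM of the barcode, log scale, values under 20 drawn at 20) of each member and platelet-like barcode, old library left and adult library right; dotted lines are the cuts at 1% and 1500 CPM. Malat1-high members, 21 old and 7 adult, stand apart at the upper right, and Malat1-low members lie left of the 1% line with most platelet-like barcodes.

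Detection of all 3 markers outside the choice followed these ranges. All 3 of Vwf, Itgb3 and Gp6 were found in 19 of 21 old and 7 of 7 adult Malat1-high members and in 47 of 62 old and 16 of 29 adult Malat1-low members. In Itga6-low members they were all found in 1 of 8 old and 1 of 9 adult, and in mixed members in 18 of 61 old and 26 of 109 adult. At least 2 of the 3 were found in 4 of 8 old and 7 of 9 adult Itga6-low members, against 58 of 62 old and 21 of 29 adult Malat1-low members. The name megakaryocyte thus had less marker support in the Itga6-low range when all 3 were asked for, but not in the adult library at 2 or more. This range is not described further. Malat1-high members were deep, with a median of 11157 UMIs in the old library and 15269 in the adult, and Malat1-low members had a median of 4470.5 and 3720 UMIs. Malat1 at 1% or more was seen in 9.72% of old and 6.57% of adult platelet-like barcodes, and in 86.1% of old and 89.6% of adult other barcodes of 1000 or more genes. Over unmixed members the share of Malat1 and the share of the 6 genes ran against each other (Spearman rho −0.67 over 91 old and −0.66 over 45 adult barcodes). Both are shares of the same total, and barcodes of 1 library are not replicates.

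The windows just upstream of the start sites of genes that define or mark these cells are shown because GATA and ETS factors are known to act on this gene set. Of the 6 genes of the choice and Vwf, Itgb3 and Gp6, 7 of 9 had an entry in the RefSeq table (build GRCm38.p6). Each line gives the 250 bases before the start, 5′ to 3′ on the gene's strand, with matches in capitals to a GATA motif (AGATAA or AGATAG or TGATAA or TGATAG) or an ETS motif (AGGAAG or CGGAAG) on either strand. No GATA match overlapped an ETS match.
Pf4, chr5:90772185-90772434, plus strand: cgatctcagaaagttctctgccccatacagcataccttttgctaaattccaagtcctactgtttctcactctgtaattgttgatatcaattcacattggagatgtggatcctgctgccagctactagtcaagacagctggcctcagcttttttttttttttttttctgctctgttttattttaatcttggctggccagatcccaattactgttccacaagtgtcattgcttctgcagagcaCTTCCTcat
Itga2b, chr11:102469884-102470133, minus strand: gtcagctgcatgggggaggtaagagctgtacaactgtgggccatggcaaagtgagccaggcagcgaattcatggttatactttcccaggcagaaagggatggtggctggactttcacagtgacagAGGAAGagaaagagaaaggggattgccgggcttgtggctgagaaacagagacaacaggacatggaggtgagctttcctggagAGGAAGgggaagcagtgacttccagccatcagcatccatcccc
Gp6, chr7:4397745-4397994, minus strand: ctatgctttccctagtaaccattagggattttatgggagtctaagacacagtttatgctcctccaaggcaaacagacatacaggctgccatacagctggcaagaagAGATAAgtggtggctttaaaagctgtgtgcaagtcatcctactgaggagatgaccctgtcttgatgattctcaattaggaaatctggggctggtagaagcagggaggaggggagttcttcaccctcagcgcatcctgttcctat
F5, chr1:164151585-164151834, plus strand: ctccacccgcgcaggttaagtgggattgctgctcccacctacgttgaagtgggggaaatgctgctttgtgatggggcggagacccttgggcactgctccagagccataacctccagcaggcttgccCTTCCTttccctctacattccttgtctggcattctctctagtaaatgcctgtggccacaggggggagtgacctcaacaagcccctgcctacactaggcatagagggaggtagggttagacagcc
Pf4 (platelet factor 4, an alpha granule chemokine) had 1 ETS match, Itga2b (integrin alpha-IIb) had 2, and F5 (coagulation factor V) had 1. Gp6 had 1 GATA match. Every window shown holds a match. Of the windows not shown, Gp9 had 1 ETS match, Gp1bb had 1 match of each motif, and Ppbp and Treml1 had none. F5 is not among the 9 genes. It was 1 of 4 further genes looked up, of which 3 had an entry. Among those, F13a1 had ETS matches and Dgkd had no match. Over the 7 genes, 4 windows held an ETS match and 2 a GATA match. Over all 32851 windows of the same length in the table, 39.2% held an ETS match and 26.5% a GATA match, so a match is common, and it is a description of these letters and not a site.

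Compared with platelet-like barcodes of both libraries together, members held more RNA of ribosomal protein and immediate early genes. All 6 genes of the choice were lower, which describes the choice. A gene was called apart at a 2-fold ratio of CPM with at least 50 CPM and 50 UMIs in the group where it was higher. Of 3400 genes past the minimum, 1589 (46.7%) were higher and 471 (13.9%) lower in members, and 853 and 306 of them were called so in each library alone. The median log2 ratio of all genes was 0.89. Pf4 stood at 5733 CPM in members and 20195 CPM in platelet-like barcodes, a log2 ratio of −1.82. Vwf stood at 284 CPM in members and 921 CPM in platelet-like barcodes. Of the 25 immediate early genes (Fos, Jun and others switched on fast by a stimulus) 20 passed the minimum and 19 of them were higher in members, with a median of 2.13. Of 34 ribosomal protein genes 33 were higher, with a median of 1.56. Of 32 oxidative phosphorylation genes 5 were higher and 1 lower, with a median of 0.28, and of 10 glycolysis and hypoxia genes 2 were higher and 3 lower, with a median of −0.64. All 12 osteolineage genes were higher as well, with a median of 3.05, so the pooled contrast holds the RNA of other cells described above.

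Malat1-high members differed from platelet-like barcodes in the kind of transcript. Transcription factor and immediate early genes were higher and mitochondrial and ribosomal protein genes were lower. Of 2172 genes past the minimum 748 (34.4%) were higher and 832 (38.3%) lower, with a median of −0.39. In the old library alone 602 of 1629 were higher (37%) and 596 lower (36.6%). In the adult library, with 7 such members, 235 of 1563 were higher (15%) and 926 lower (59.2%). The choice of unmixed members left out barcodes over the CAR, osteolineage, erythroid, neutrophil lineage and plasma and B cell cuts, and platelet-like barcodes had no such cut. The levels of those lists in this contrast therefore follow from the choice and are not read.

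Among megakaryocyte transcription factors, 11 of the 13 that passed the minimum were higher in Malat1-high members, with a median of 2.02. Lyl1, a basic helix-loop-helix factor of blood-forming cells, stood at 366 CPM in old and 731 CPM in adult Malat1-high members. In platelet-like barcodes Lyl1 stood at 30.4 CPM in the old library and 21.4 CPM in the adult. Gata1 stood at 415 and 472 CPM in old and adult Malat1-high members, against 62.5 and 53.1 CPM in platelet-like barcodes. Fli1 had a log2 ratio of 2.02 over both libraries and Nfe2 of 1.41. Runx1 was not called, at 275 CPM in Malat1-high members and 293 CPM in platelet-like barcodes. Both libraries gave the same side for Lyl1 and Gata1.

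Of the 7 genes of the thrombopoietin signalling list that passed the minimum 5 were higher in Malat1-high members, among them Jak2, a kinase of this pathway (366 CPM in Malat1-high members and 158 CPM in platelet-like barcodes, and not higher in the adult library alone), Stat5b, the factor it activates (507 and 120 CPM), and Cbl, a ubiquitin ligase that restrains the signal (944 and 101 CPM). Tubb1, the beta-1 tubulin of proplatelets, was higher at 1913 CPM in Malat1-high members and 543 CPM in platelet-like barcodes. In the proplatelet cytoskeleton list as a whole 4 of 18 genes were higher and 6 lower. Myl9, a myosin light chain, was among the lower ones, at 289 CPM in Malat1-high members and 2706 CPM in platelet-like barcodes.

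Several adhesion genes were within 2-fold, while others were far lower. Vwf stood at 791 CPM in Malat1-high members and 921 CPM in platelet-like barcodes. Itgb3 stood at 1580 and 1732 CPM, and Gp6 at 593 and 675 CPM. These values pool both libraries. In each library alone Itgb3 lay further below platelet-like barcodes, while Gp6 lay below them in the old library and above them in the adult. Gp5, glycoprotein V of the von Willebrand receptor, stood at 1114 CPM in Malat1-high members and 1111 CPM in platelet-like barcodes. Gp9, glycoprotein IX of the same receptor, was lower, at 88.5 CPM in Malat1-high members and 2694 CPM in platelet-like barcodes. Gp9 is a gene of the choice, so this value is a description. Fcer1g, the signalling chain that pairs with Gp6, was lower at 64.6 CPM in Malat1-high members and 1621 CPM in platelet-like barcodes.

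Immediate early genes were higher in 13 of the 16 that passed the minimum, with a median of 3.07. Junb stood at 1712 CPM in old and 4599 CPM in adult Malat1-high members, against 96.2 CPM in old and 156 CPM in adult platelet-like barcodes. Zfp36, which speeds the decay of short-lived messages, stood at 1121 and 1007 CPM in old and adult Malat1-high members, against 69.2 and 61.2 CPM in platelet-like barcodes. Bbc3, the proapoptotic protein PUMA, stood at 614 CPM in Malat1-high members and 19.1 CPM in platelet-like barcodes and was among 4 of 8 apoptosis genes that were higher. Oxidative phosphorylation genes were lower in 26 of 27, with a median of −2.58, for example Cox6c at 76.5 CPM in Malat1-high members and 716 CPM in platelet-like barcodes. Ribosomal protein genes were lower in 31 of 34. B2m, the light chain of class I antigen presentation, was lower at 461 CPM in Malat1-high members and 3791 CPM in platelet-like barcodes, and 5 of 6 genes of the antigen presentation list were lower.

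The genes with the greatest ratio in both libraries included Zc3h12c, Ppp1r12b, Neb, Dennd4a and Dlg2. Dlg2, a scaffold protein gene known from synapses, stood at 4110 CPM in old and 1595 CPM in adult Malat1-high members, against 117 CPM in old and 52.1 CPM in adult platelet-like barcodes. Neb, the nebulin gene of muscle thin filaments, stood at 892 CPM in old and 2576 CPM in adult Malat1-high members, against 32.1 and 15.3 CPM in platelet-like barcodes. Lyz2, lysozyme of myeloid cells, was at the other end, at 112 CPM in Malat1-high members and 3005 CPM in platelet-like barcodes. Whether the reads lay in introns or exons was not used here.

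Malat1-low members held more RNA of ribosomal protein and oxidative phosphorylation genes than platelet-like barcodes, and the size of these differences rested in part on 8 barcodes with mitosis genes described next. Of 2641 genes past the minimum 960 (36.3%) were higher and 362 (13.7%) lower than in platelet-like barcodes, with a median of 0.43. Pf4, a gene of the choice, stood at 17978 CPM in Malat1-low members and 20195 CPM in platelet-like barcodes. All 34 ribosomal protein genes were higher, with a median of 2.27. Rps6, for example, stood at 1386 CPM in old and 881 CPM in adult Malat1-low members, against 192 CPM in old and 120 CPM in adult platelet-like barcodes. Of 33 oxidative phosphorylation genes 19 were higher, and Atp5g1, a subunit of the ATP synthase, stood at 430 CPM in Malat1-low members and 45.8 CPM in platelet-like barcodes. Npm1 and Ncl, nucleolar proteins of ribosome assembly, had log2 ratios of 3.45 and 3.46. Itga2b, also a gene of the choice, stood at 1484 CPM in Malat1-low members and 3445 CPM in platelet-like barcodes. Clu, Nrgn and Ctla2a, all abundant in platelet-like barcodes, were lower too, and 6 of 14 alpha granule genes were.

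A few barcodes with mitosis genes carried much of this range. In the old library 5 of 62 Malat1-low members held UMIs of 5 or more of 26 mitosis genes, with a median of 54010 UMIs, and gave 41.9% of the range's UMIs. Their Pf4 stood at 3740 CPM and their Itga2b at 83.6 CPM, against 24452 and 2895 CPM in the 57 other old Malat1-low members. Vwf had 3 UMIs in these 5 barcodes, and Car1, a carbonic anhydrase of red cell precursors and a gene of the erythroid list, stood at 1188 CPM there and 9.51 CPM in the 57 others. In the adult library 3 of 29 did so, with a median of 2523 UMIs and 4.25% of the range's UMIs. Without these 8 barcodes 424 of 1871 genes were higher (22.7%) and 204 lower (10.9%) than in platelet-like barcodes, with a median of 0.02, and the mitosis genes Birc5, Ube2c, Top2a and Mki67 lay below them (log2 ratios of −0.60, −2.45, −2.19 and −1.82).

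Without the same 8 barcodes several of the values above were smaller or turned. Ribosomal protein genes took 12.4% of the UMIs of the 5 old barcodes and 3.23% of those of the 57 others, against 1.79% in old platelet-like barcodes. Over both libraries 32 of 34 ribosomal protein genes were then higher than in platelet-like barcodes, with a median of 1.56 in place of 2.27, and 14 of 30 oxidative phosphorylation genes, with a median of 0.97. In the old library alone 13 of 34 ribosomal protein genes were higher, with a median of 0.88. In the adult library alone all 34 were, with a median of 2.26. Oxidative phosphorylation genes were higher in 8 of 27 in old alone and in 11 of 24 in adult alone. Rps6 stood at 574 CPM in the 57 old and 908 CPM in the 26 adult members left, still above platelet-like barcodes in each library. Ncl had a log2 ratio of 1.13, and Npm1, at 0.96, was no longer called. The libraries differed for both genes. Ncl was 0.44 in old alone, not called, and 1.85 in adult alone. Npm1 was −0.40 in old alone and 2.53 in adult alone. Over both libraries Itga2b stood at 2152 CPM and was within 2-fold of platelet-like barcodes, and Pf4, at 24599 CPM, lay above them. In each library alone Itga2b had a log2 ratio of −0.75 in old, not called, and of −1.88 in adult, called lower. Clu, Nrgn and Ctla2a were still lower over both libraries, with log2 ratios of −1.27, −1.38 and −1.26. In the old library alone they were −1.17, −0.98 and −0.82, and only Clu was called. In the adult library alone they were −1.72, −2.01 and −2.17. Of 14 alpha granule genes 1 was then lower over both libraries. That drop in the count did not hold in each library. Alpha granule genes were lower in 1 of 14 in the old library alone, with a median of −0.45. In the adult library alone they were lower in 7 of 13, with a median of −1.14.

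No Malat1-high member, of 21 old and 7 adult, held 5 mitosis genes. By an approximate limit, and not an exact interval, this number allows a share of up to about 14.3% in the old library and 42.9% in the adult.

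**Figure D3:**
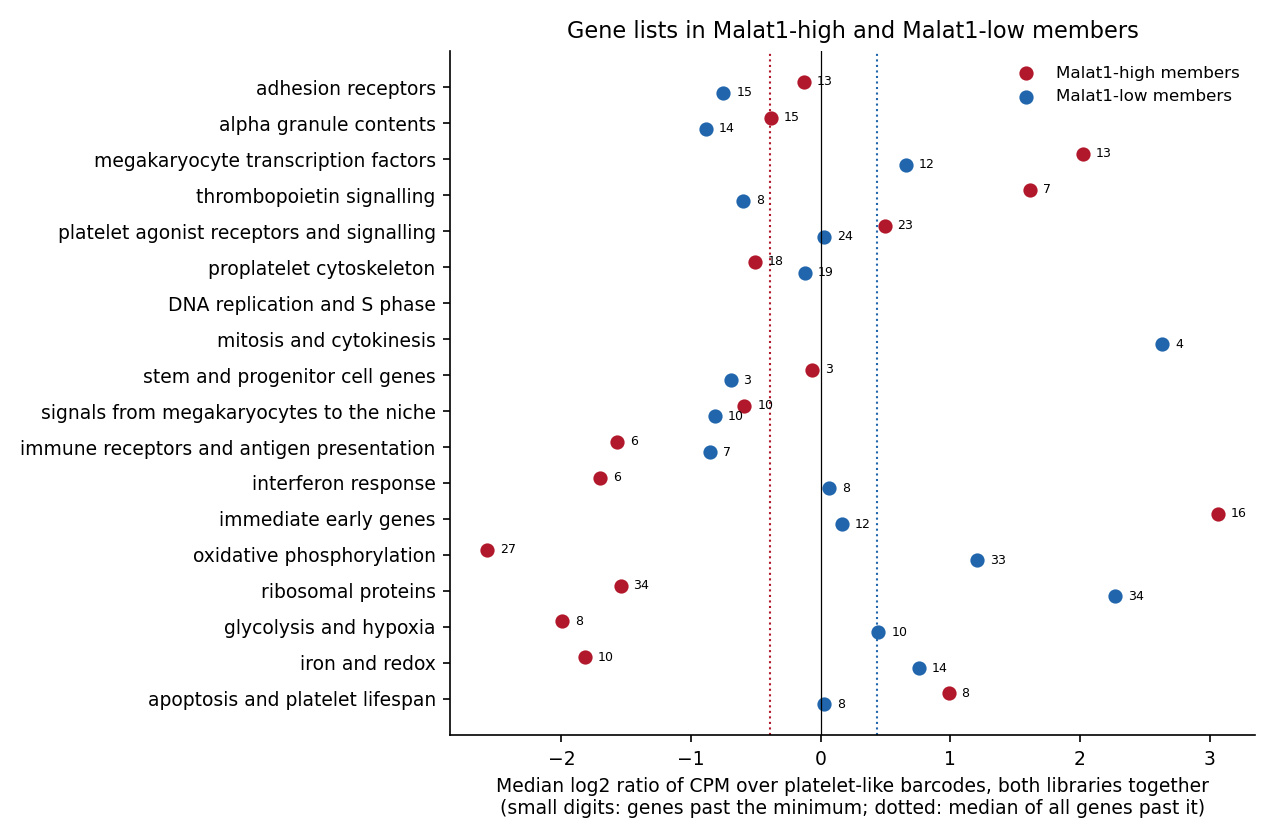
Median log2 ratio of CPM over platelet-like barcodes (x axis) for gene lists (y axis), Malat1-high members in red and Malat1-low members in blue, both libraries together; small digits give the genes past the minimum, dotted lines the median of all genes, and lists with fewer than 3 such genes have no point. Ribosomal and oxidative phosphorylation genes lie on opposite sides, at −1.54 and −2.58 for Malat1-high and at 2.27 and 1.21 for Malat1-low members (1.56 and 0.97 without the 8 barcodes with mitosis genes, not drawn), and immediate early genes reach 3.07 in Malat1-high members.

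Set directly against Malat1-low members, Malat1-high members had 739 of 2522 genes higher (29.3%) and 1203 lower (47.7%). All 34 ribosomal protein genes and all 33 oxidative phosphorylation genes that passed the minimum were lower in Malat1-high members, with medians of −3.86 and −3.48, while the median of all genes was −0.78. Of 15 immediate early genes 12 were higher, and of 14 transcription factors 8 were higher and 2 lower. Vwf, Itgb3 and Gp6 were not called, at 791, 1580 and 593 CPM in Malat1-high and 521, 1446 and 419 CPM in Malat1-low members. Without the 8 barcodes with mitosis genes 699 of 1893 genes were higher (36.9%) and 698 lower (36.9%), and all 34 ribosomal protein genes were still lower, with a median of −3.15.

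The interval for the share of members in the libraries held 1, while their make-up differed. They were 0.869% (interval 0.737% to 1.02%) of the old and 0.733% (interval 0.622% to 0.858%) of the adult barcodes of 1000 or more genes, a ratio of 1.19 with an interval from 0.94 to 1.49. Under stricter choices the interval was above 1, with ratios of 1.41 (interval 1.08 to 1.83) at a sum of 20 UMIs or more, 1.47 (interval 1.14 to 1.91) with Cxcl12 under 10 UMIs and 1.28 (interval 1.004 to 1.65) with 5% or fewer mitochondrial UMIs. The Malat1-high share was 0.120% in the old and 0.0333% in the adult library, a ratio of 3.60 (interval 1.48 to 10.0). The Malat1-low share was 0.355% in the old and 0.138% in the adult, a ratio of 2.57 (interval 1.63 to 4.14). Both ranges leave out mixed members, by cuts set after seeing the data. With mixed members kept, 23 old and 10 adult members were over both the Malat1 and the Itga6 cut. With the cuts for mixed members doubled, the ratios were 3.07 (interval 1.37 to 7.54) for Malat1-high and 2.26 for Malat1-low members. With those cuts halved, the Malat1-low ratio was 2.73, and the Malat1-high interval ran from 1.55 to 12.2. Mixed members and platelet-like barcodes went the other way, with ratios of 0.672 (interval 0.483 to 0.928) and, of all barcodes, 0.667 (interval 0.595 to 0.746). The depletion of blood-forming cells and the sort can set these shares, and their part was not tested.

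**Figure D4:**
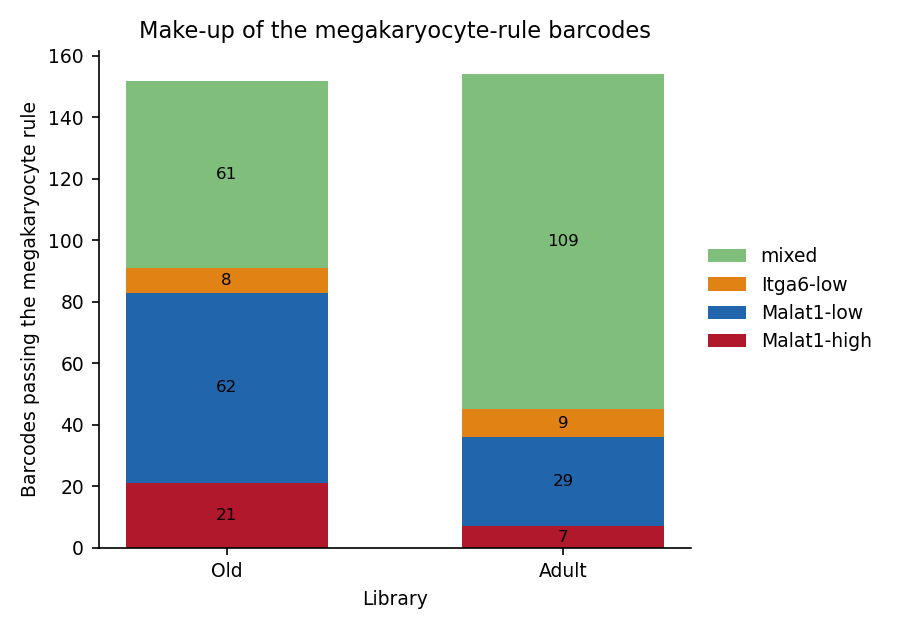
Number of members (y axis, barcodes) in the old and the adult library (x axis), stacked by range: Malat1-high, Malat1-low, Itga6-low and mixed. The bars are near the same height, 152 and 154, while Malat1-high and Malat1-low members are 21 and 62 in the old library and 7 and 29 in the adult.

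Over all members together, all 7 plasma and B cell genes that passed the minimum were higher and 9 of 12 osteolineage genes were lower in the old library. Of 3653 genes past the minimum 347 (9.5%) were higher and 604 (16.5%) lower in old members, with a median log2 ratio of −0.04. Outside those lists, the 10 genes highest in old members were Cd52, Cd74, Slamf7 and Irf4, which are known from lymphoid cells, and Ly6k, Ly6c2, Ly6d, Slpi, Ctxnd1 and Ly6a. The 10 lowest were Col24a1, Col11a1 and Serpinf1, known from bone and cartilage, and Cpz, Prss35, Kazald1, Dcc, Adarb2, Cgref1 and Entpd3. Without the mixed members 275 of 2456 genes were higher (11.2%) and 145 lower (5.9%). The ranges are therefore compared one at a time.

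Summed over whole lists, old Malat1-high members held more RNA of alpha granule and ribosomal protein genes than adult ones. They also held more of the integrin genes Itga2b and Itgb3. Of 896 genes past the minimum 242 (27%) were higher and 47 (5.25%) lower in old, with a median of 0.41. The 50-UMI minimum asks for more CPM in the adult sum of 112201 UMIs than in the old sum of 306056, which makes calls of lower genes fewer. With 1 minimum in CPM for both, 86 were higher. In the alpha granule list 8 of 12 genes were higher, with a median of 1.80. In the ribosomal protein list 8 of 13 were higher, with a median of 1.59. A gene between the CPM levels that the minimum asks for in old and in adult passes only when it is higher in old. These list counts and medians therefore lean toward old, and they were not taken with 1 minimum for both. All 13 ribosomal protein genes that passed were above 0. Sums over whole lists do not use the minimum. For the alpha granule list they were 11939 CPM in old and 7353 CPM in adult. For the ribosomal protein list they were 5300 and 2585 CPM. Malat1 took a median of 7.54% of the UMIs in old and 21.1% in adult barcodes, and its part in these differences was not tested.

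Itgb3 stood at 1938 CPM in the 21 old Malat1-high members and 606 CPM in the 7 adult ones, a log2 ratio of 1.68 (interval 1.31 to 2.06). Over barcodes it ran from 269 to 6221 CPM with a median of 2009 in old, and from 251 to 1140 CPM with a median of 563 in adult, so the barcodes overlapped. Itga2b had medians of 2210 CPM in old and 982 CPM in adult barcodes, and a log2 ratio of 1.21. Thbs1, thrombospondin-1 of alpha granules, stood at 2738 CPM in old and 829 CPM in adult Malat1-high members, with medians over barcodes of 1558 and 718 CPM. F5 had a UMI in 18 of 21 old barcodes but 3 of 7 adult ones, and stood at 510 CPM in old and 53.5 CPM in adult. Vwf had a log2 ratio of 1.37 and medians of 627 CPM in old and 434 CPM in adult barcodes. Without the 10% of barcodes with most UMIs, the Vwf ratio was 0.87 and no longer called.

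Other granule and signalling genes higher in old Malat1-high members were Timp3, Tgfb1, Serpine2 and Pde3a. Timp3, a metalloproteinase inhibitor, had 128 UMIs in 8 of 21 old barcodes and 0 in 7 adult ones, a log2 ratio of at least 3.97 with a floor of 3 counts over the group. Tgfb1, which megakaryocytes secrete into their niche, had 100 UMIs in old and 3 in adult members, a log2 ratio of 3.61 (interval 2.02 to 5.91). Timp3 and Tgfb1 lay at levels that pass the minimum only through the old sum. Flna, the filamin that anchors the von Willebrand receptor, stood at 562 CPM in old and 26.7 CPM in adult members, with 59% of the old UMIs from 1 barcode. Fli1 was higher as well, at 1552 CPM in old and 526 CPM in adult members, while Gata1, at 415 and 472 CPM, and Nfe2, at 765 and 784 CPM, were not called. Jak2 stood at 464 CPM in old and 98 CPM in adult. Without the same barcodes the log2 ratios were 1.73 for Serpine2, against 3.30 with them, 3.06 for Pde3a, against 3.72, and 3.16 for Flna, against 4.39. They were 2.96 for Tgfb1, at least 3.23 for Timp3 and 2.66 for F5.

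Among genes lower in old Malat1-high members was Tubb2a, a beta tubulin, at 1947 CPM in old and 7602 CPM in adult. Its medians over barcodes were 1290 CPM in old and 7864 CPM in adult, with ranges from 0 to 11788 and from 2713 to 13360 CPM. Mest stood at 284 CPM in old and 1676 CPM in adult, with 66% of the old UMIs from 1 barcode, and Neb at 892 and 2576 CPM. Junb stood at 1712 CPM in old and 4599 CPM in adult members, and 5 of 15 immediate early genes were lower and 2 higher in old. Tubb1, the proplatelet tubulin, was not called, at 1980 and 1729 CPM. Pf4 was not called, at 3699 CPM in old and 5954 CPM in adult, nor was Gp6, at 500 and 847 CPM.

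Old Malat1-low members held more RNA of some integrin and granule genes than adult ones. For the lists as a whole the difference depended on the barcodes with 5 mitosis genes. Of 1410 genes past the minimum 321 (22.8%) were higher and 57 (4.04%) lower in old than in adult ones, with a median of 0.41, and with 1 minimum in CPM for both libraries 62 were higher. Of 12 alpha granule genes 5 were higher and 2 lower (Sparc and Serpine2), with a median of −0.04, and of 12 adhesion receptor genes 2 were higher, with a median of 0.23. Here too the minimum asks for more CPM in the adult sum, so list counts lean toward old. Thbs1 stood at 3312 CPM in the 62 old and 698 CPM in the 29 adult Malat1-low members, a log2 ratio of 2.25 (interval 1.98 to 2.53). Itga2b stood at 1717 CPM in old and 733 CPM in adult, and Itgb3 at 1717 and 574 CPM. Itga6, which did not define this range, stood at 1286 CPM in old and 426 CPM in adult members. Mmrn1, multimerin of alpha granules, stood at 440 CPM in old and 177 CPM in adult. Without the barcodes with 5 mitosis genes 235 of 902 genes were higher (26.1%) and 81 lower (8.98%), with a median of 0.41. Of 13 alpha granule genes 5 were then higher and 2 lower, with a median of 0.61, and of 13 adhesion receptor genes 5 were higher, with a median of 0.95. The whole alpha granule list then took 1.59% of the UMIs in old and 0.860% in adult. The adhesion receptor list took 2.42% and 1.34%. The log2 ratios of single genes were larger, at 2.31 for Itgb3, 2.37 for Vwf, 2.04 for Itga2b and 3.01 for Thbs1. The ribosomal protein list turned. With the barcodes with 5 mitosis genes 31 of its 34 genes were above 0, with a median of 0.30. Without them all 34 were below 0 and 11 were called lower, with a median of −0.86.

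Several genes with the greatest ratios in old Malat1-low members were most abundant in the barcodes with mitosis genes. Slc25a21, a mitochondrial carrier, stood at 542 CPM in old and 11.8 CPM in adult members, with 57% of the old UMIs from 1 barcode. Car2, another carbonic anhydrase, stood at 577 CPM in old and 71 CPM in adult, and Car2 stood at 1276 CPM in the 5 old barcodes with mitosis genes and 72.9 CPM in the 57 others. Mt1 (a metallothionein) and Cdk6 (a kinase of cell cycle entry) were higher in old too, with log2 ratios of 4.83 and 4.55, and of 1.91 and 2.29 without those barcodes. Slc25a21 and Car2 were then no longer called, at 0.85 and 0.24. Among the lower genes were Col12a1, Col3a1 and Mgp, matrix genes of stromal cells, and only 4 of 62 old barcodes and 4 of 29 adult ones held a UMI of Col12a1. Fos stood at 151 CPM in old and 710 CPM in adult members, Jun at 149 and 509 CPM. Tesc, tescalcin, a gene of megakaryocyte differentiation, stood at 345 CPM in old and 999 CPM in adult, with medians over barcodes of 269 and 788 CPM, but its log2 ratio of −1.54 was −0.89 without the barcodes with mitosis genes. Pf4, at 15778 and 25035 CPM, was not called, and its log2 ratio of −0.67 was −0.03 without the barcodes with 5 mitosis genes.

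In platelet-like barcodes, which share no barcode with the members, 7 genes that are neither immunoglobulin genes nor on a list of another cell type were called higher in old as they were in both ranges. Of 1806 genes past the minimum there, 86 (4.76%) were higher and 96 (5.32%) lower in old. Over the 496 genes past the minimum in Malat1-high members, Malat1-low members and platelet-like barcodes alike, 129, 75 and 28 were higher in old. The minimum leans the counts of Malat1-high and Malat1-low members toward old. Called higher in all 3 sets were Itgb3, Vwf, Thbs1, F5, F13a1, Diaph1 and Dgkd, and the immunoglobulin genes Igkc and Ighg2b. Called lower in all 3 were Col1a1 and Col1a2. The immunoglobulin and collagen genes belong to the lists of plasma and osteolineage cells. The 3 sets of a library come from 1 preparation and are not replicates.

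In platelet-like barcodes Itgb3 stood at 2712 CPM in old and 1139 CPM in adult, a log2 ratio of 1.25 (interval 1.14 to 1.36). Vwf stood at 1420 CPM in old and 620 CPM in adult, and Thbs1 at 4378 and 2018 CPM. F5 stood at 1820 CPM in old and 843 CPM in adult, and F13a1, the A chain of coagulation factor XIII, at 390 and 191 CPM. Itga2b was just under the 2-fold limit, at 4873 CPM in old and 2582 CPM in adult, a log2 ratio of 0.92. Diaph1, a formin that nucleates actin, had log2 ratios of 3.10, 1.87 and 1.17 in Malat1-high members, Malat1-low members and platelet-like barcodes, and 61% of its UMIs in old Malat1-high members came from 1 barcode. Without the 10% of barcodes with most UMIs its first ratio was 1.87. Dgkd, a diacylglycerol kinase, had 1.57, 2.24 and 1.34.

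Not every megakaryocyte gene was higher in old. Pf4 had log2 ratios of −0.69, −0.67 and 0.06 over the same 3 sets, and Gp5 of −0.23, 0.01 and −0.10. Gp6 had −0.76, 0.22 and 0.26. Treml1, a receptor stored in alpha granules, had 0.43, −0.17 and −0.33. The Malat1-low values of these 4 genes include the barcodes with 5 mitosis genes. Without those barcodes Gp6 had 0.97 in Malat1-low members, not called, and Pf4 had −0.03. In the other barcodes of 1000 or more genes, where these genes are low, Thbs1 stood at 76.9 CPM in old and 121 CPM in adult, and F5 at 4.51 and 10.2 CPM, both lower in old. Itgb3 there stood at 20.3 CPM in old and 12.9 CPM in adult, and Vwf at 7.12 and 3.93 CPM.

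**Figure D5:**
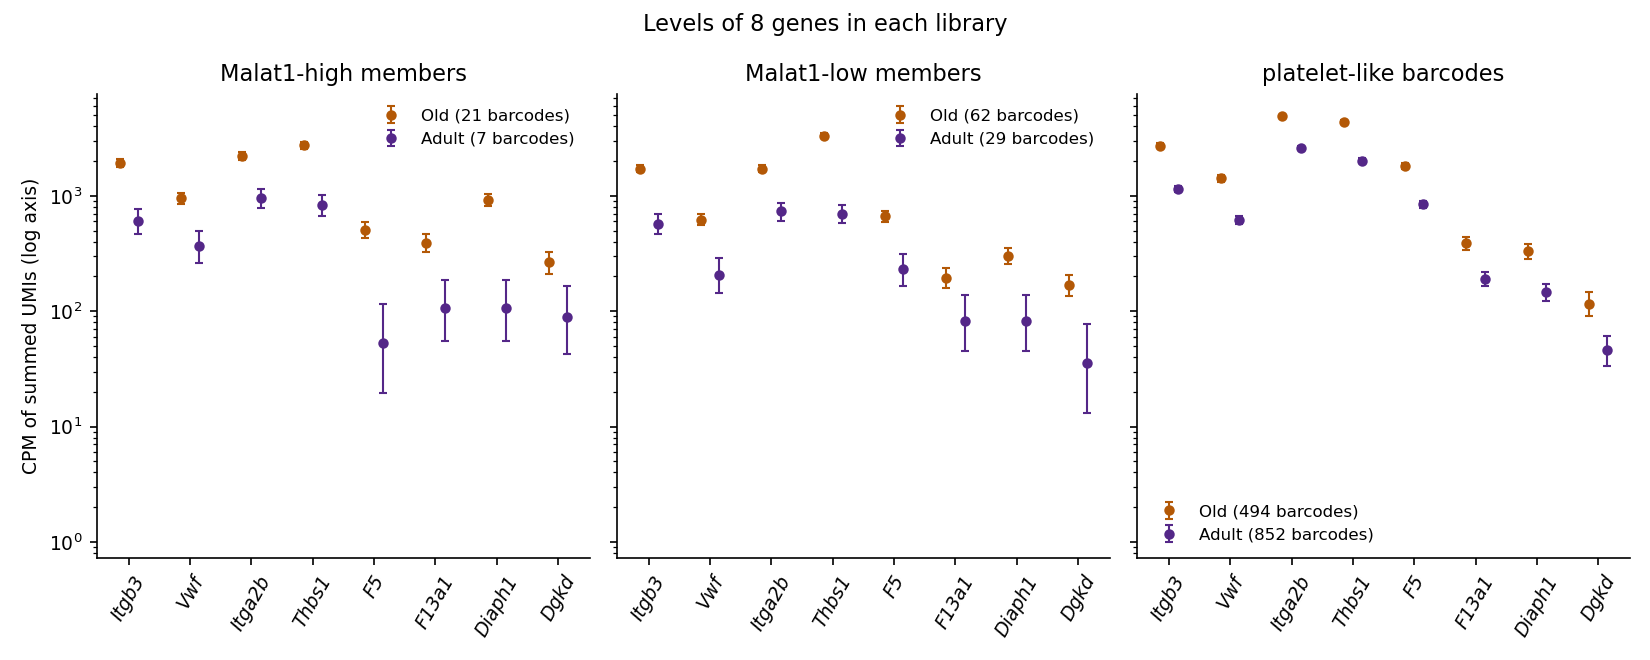
CPM of the summed UMIs (y axis, log scale) of 8 genes (x axis) in Malat1-high members, Malat1-low members and platelet-like barcodes, old left in orange and adult right in purple; bars are exact 95% intervals for counting error in 1 library per age. Of the 8 genes, 7 were drawn because they were called higher in old in each of these sets, so their order in each panel follows from that choice. Itga2b lies higher in old in each panel too, in platelet-like barcodes by less than 2-fold, as 4873 and 2582 CPM. Pf4, Gp5, Gp6 and Treml1, which were not higher in old in every set, are not drawn.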

How the data were processed

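The deposited values are raw UMI counts per gene and barcode, 1 matrix per library, made by the authors with Cell Ranger 7.0.1, per the file headers, on GRCm39, per the submitters' processing notes. Every deposited barcode had at least 500 UMIs. The labels and headers read here name no further upstream step, number of mice, age in months or pooling. Counts were used as deposited. UMIs were summed over the barcodes of a set and library and divided by the set's total, giving CPM (Python 3.11.15, NumPy 2.4.6, SciPy 1.17.1, pandas 2.3.3). Ratios carry exact conditional binomial, levels exact Poisson and shares Clopper-Pearson intervals of 95%, for counting error only. A set with 0 UMIs was given a floor of 3 counts. No p-value was computed, since cells of 1 library are not replicates. Calls needed a 2-fold ratio, 50 CPM and 50 UMIs. Doublets were not called or removed. Promoter sequences are from RefSeq (GRCm38.p6) by symbol.

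The members, gene lists and tests were chosen with earlier results of these data known, and the cuts for mixed, Malat1-high, Malat1-low and Itga6-low members after seeing the data. Named genes were the 10 highest and 10 lowest ratios with 100 CPM and 100 UMIs, without mitochondrial, ribosomal, immunoglobulin, haemoglobin, predicted, sex-linked and other-cell genes and with a level at least that of the other barcodes. Up to 4 genes farthest in the direction of each list's median and a fixed set of lineage genes were added. Genes called higher in old in all 3 sets of barcodes were named after their values were seen, as were Itga6, Mmrn1, Fcer1g and Car1. One of these lineage genes is not reported here.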

Additional observations from a re-analysis of the deposited data

How the results depend on the processing

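For the share of all members, limits on genes, mitochondrial UMIs, the sum of the 6 genes and Cxcl12 gave ratios from 1.09 to 1.47, within the interval of 0.94 to 1.49, and they were not run for the ranges. The ratio of shares, 1.19 for members, was 2.43 without mixed members, 3.60 for Malat1-high and 2.57 for Malat1-low members. Of the 347 genes higher and 604 lower in old members, 184 and 167 were called after thinning each barcode to 2000 UMIs, and 646 and 1143 at 20 CPM and 20 UMIs. Totals without mitochondrial, haemoglobin and immunoglobulin genes gave 572 higher. Lower genes were 910 without members high for another cell type's list, 145 without mixed members, 47 in Malat1-high and 57 in Malat1-low members. For old Malat1-high members the 242 higher and 47 lower were 138 and 23 without the 10% of members with most UMIs, 86 higher came with 1 CPM minimum for both libraries, and 104 lower with ratios centred on the median gene. For old Malat1-low members the 321 higher and 57 lower were 191 and 110 when centred, 165 and 20 without the deepest 10%, and 62 higher with 1 CPM minimum. Over platelet-like barcodes, 1589 higher and 471 lower were 141 and 235 after thinning to 500 UMIs, where fewer genes reach the minimum. At 20 CPM 3187 were higher, without mixed members 279 were lower, and the ranges gave 748 higher and 832 lower (Malat1-high) and 960 higher (Malat1-low). Malat1-high calls were 172 and 285 after thinning, and 235 higher in the adult library alone. Malat1-low calls, 960 and 362, were 31 and 208 after thinning, 424 and 204 without barcodes with 5 mitosis genes, and 218 higher in the adult library alone.

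Among named genes that were called, directions turned for few. The ribosomal protein list as a whole turned in old over adult Malat1-low members, from a median of 0.30 to −0.86 without barcodes with 5 mitosis genes. In old over adult Malat1-low members C1qtnf12 was −0.38 and C1qbp −0.96 without barcodes with 5 mitosis genes, and C1qbp −0.35 without the deepest 10%. Mki67 was −1.54 with members weighted alike, −1.67 without the deepest 10% and −0.38 without barcodes with 5 mitosis genes, and Ube2c was −1.37 weighted alike and −0.61 without the deepest 10%. Over platelet-like barcodes Gp1bb was 0.20 in Malat1-low members, and Cdkn1a −1.20 and Jak2 −0.59 in adult Malat1-high members. In Malat1-low members without barcodes with 5 mitosis genes Birc5 was −0.60, Ube2c −2.45, Top2a −2.19 and Mki67 −1.82, C1qbp was −0.020 after thinning, and Mt1 −0.17 in the adult library. The cause was not tested. No paired analysis was possible because each age has 1 library.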

Other observations

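Barcodes left out by the limits on stromal genes included some with the profile of Malat1-high members. With at least 10 UMIs of the 6 genes, at least 1% Malat1 and 1500 CPM of Itga6, there were 12 in the old and 3 in the adult library that had 30 or more UMIs of Cxcl12 or 3 or more of Cdh5 and Kdr. All 3 of Vwf, Itgb3 and Gp6 were found in 11 of the old and 3 of the adult ones. Under the cuts on other-cell lists were 7 old and 1 adult. Their median depth was 25346 UMIs in the old library and 39471 in the adult, above that of the Malat1-high members kept. Their values are in no comparison above.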
